A study of Mus musculus with 6 samples.

Results

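The genes described here are 7 costimulatory and coinhibitory genes of the CD28 and B7 families, Cd28, Icos, Cd80, Cd86, Icosl, Cd274 and Pdcd1lg2, measured in mouse CD8+ T cells cultured as Tc1 or as Tc17. They were taken by exact gene symbol in the array's annotation, and all 7 had a probe set, 1 each, among 22180 genes with a probe set of a single symbol. Naive CD8+ T cells sorted from spleen were activated for 4 days with antibodies to CD3 (1 µg/ml) and to CD28 (3 µg/ml). Cells called Tc1 received IL-12 for the first 3 days and cells called Tc17 received IL-6 and TGF-beta instead, and all were given IL-2 for 1 further day. There were 2 biological samples of each culture. Each group also had a technical array numbered 2, which made 3 arrays per group. From that number alone it was read as a further array of sample 2. The strain, age and sex of the mice, and whether the numbered samples came from separate animals or cultures, are not given in the sources used here. The p-values therefore set each difference only against the spread between these samples, estimated partly from all probe sets.

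CD28 and ICOS are receptors on T cells that add a second signal to that of the T cell receptor, largely through phosphoinositide 3-kinase. CD28 binds CD80 and CD86 (B7-1 and B7-2), which CTLA-4 also binds with higher affinity and with an inhibitory outcome, and ICOS binds ICOS ligand. CD274 (PD-L1) and PDCD1LG2 (PD-L2) are B7-related ligands that restrain T cells through PD-1. The B7 ligands are best known on antigen-presenting cells, and activated T cells can display several of them. The CD28 antibody of both cultures engaged the product of 1 of the 7 genes directly, and there was no culture without it.

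Each array gave RMA log2 intensities for 41345 probe sets, with medians between 6.04 and 6.09. No array gave a detection call, and the number of arrays limits the precision of each difference. Pearson's r between the sample and technical arrays across probe sets was 0.997 in Tc1 and 0.996 in Tc17. The 8 measured CD8 T cell markers lay between 10.59 (Cd2) and 13.14 (Cd3e) on every array, and none of them differed between the groups past the threshold. By the mean over the arrays Cd5 was the dimmest of them. The 3 CD4 T cell markers lay between 4.65 (Cd40lg) and 8.02 (Zbtb7b), with Cd4 between 6.80 and 7.36, and none of them passed.

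Among the 7 genes, Cd86 rose in Tc17 and the other 6 did not pass the test. Cd86 intensity was 7.77-fold higher in Tc17 (95% interval 5.98 to 10.1, n = 2 samples per group). Icos had the next largest difference, 1.69-fold lower in Tc17, and just missed the threshold. In limma's moderated test 1 of the 7 passed a Benjamini-Hochberg adjusted p of 0.05, taken over the whole array, against 1.01% of all probe sets (0.636% higher and 0.375% lower). An unadjusted p under 0.05 was found for 5 of the 7, against 13.3% of all probe sets. For 6 of the 7 genes, 3 in each direction, the arrays of the cultures did not overlap, against 23.7% of all probe sets. The same held for 13 of 20 signalling genes, 9 of 13 regulators and 2 of 6 other family genes described below. It also held for 5 of 8 CD8 T cell markers. The median log2 difference of the 7 genes (Tc17 minus Tc1, as for all differences below) was −0.02, as it was over all probe sets (−0.02). It ran from −0.07 to 0.03 when each sample was left out in turn.

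**Figure D1:**
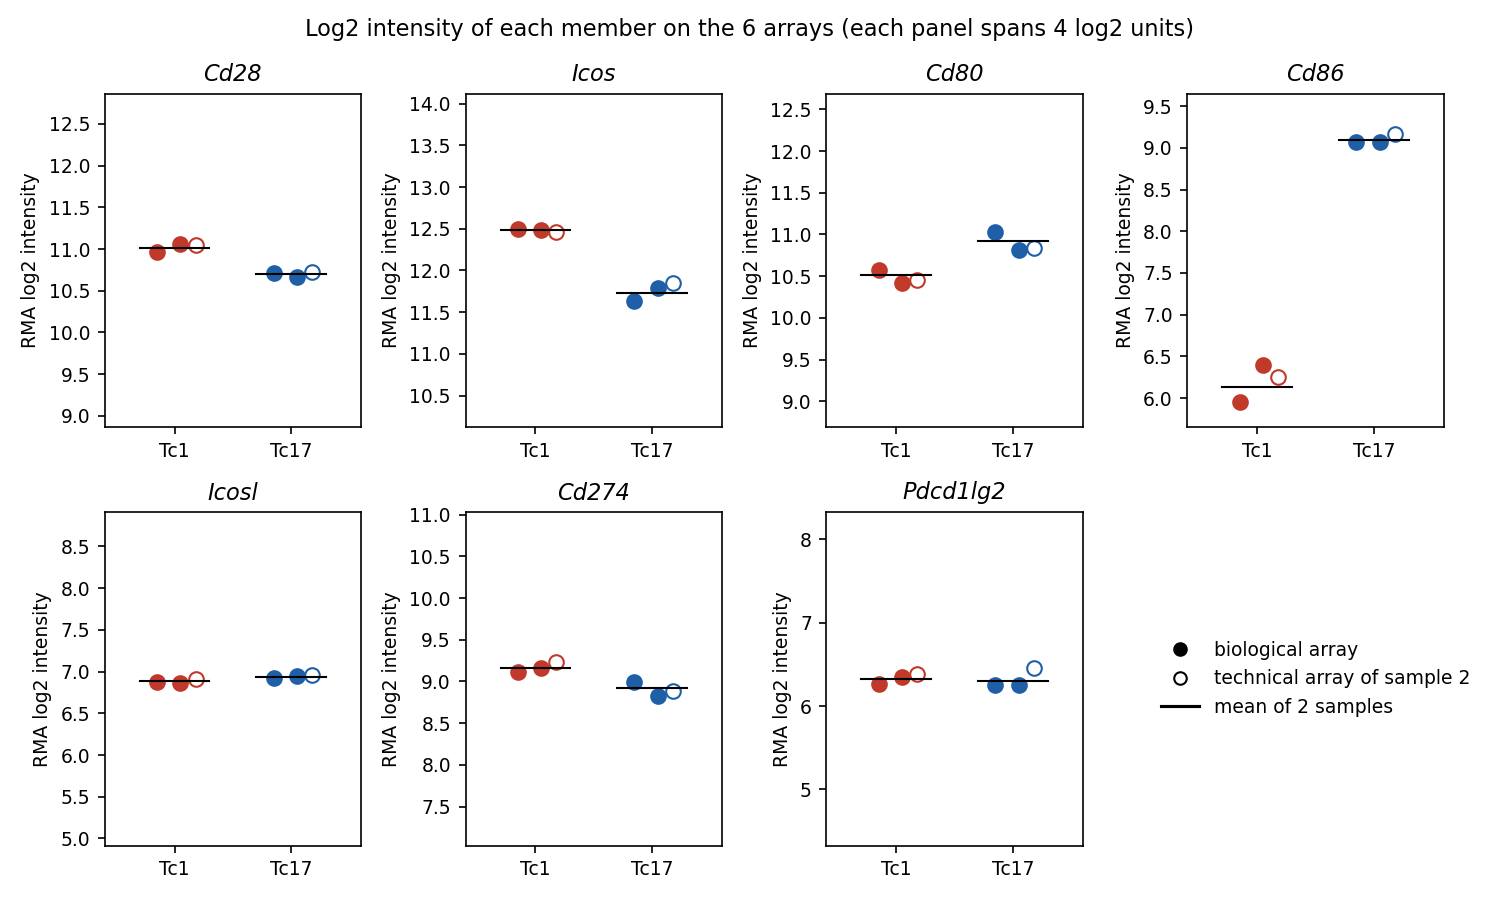
RMA log2 intensity (y axis) of the 7 genes on the 6 arrays, by culture (x axis), with filled points for biological arrays, open points for the technical array of sample 2 and a line at the mean of the 2 samples. Every panel spans 4 log2 units, so distances can be compared between panels: Cd86 separates by 2.67 between the nearest arrays of the 2 groups, Icos by 0.61, and the groups overlap for Pdcd1lg2.

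Of the receptors, Icos (probe set 17213490) was the one with the larger difference. Its log2 intensity was 12.50 in Tc1 sample 1 and 12.49 and 12.46 on the arrays of Tc1 sample 2, against 11.64 in Tc17 sample 1, with 11.79 and 11.85 for Tc17 sample 2. All Tc17 arrays were lower than all Tc1 arrays. The log2 difference was −0.76 ± 0.09 (SE, 95% interval −1.001 to −0.51, limma adjusted p = 0.056). This value did not pass in the main analysis and did in 7 of 14 alternatives, with an adjusted p from 0.00243 to 0.236 over all of them. The log2 difference stayed between −0.85 and −0.67 throughout these 14.

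Cd28 (probe set 17213462) is the receptor that the culture antibody bound. Its log2 intensity was 10.97, 11.06 and 11.05 on the Tc1 arrays (sample 1, then sample 2 and its technical array, the order used below) and 10.71, 10.67 and 10.73 on the Tc17 arrays. The Tc17 arrays were thus the lower ones without overlap, by a log2 difference of −0.30 ± 0.08 (SE, 95% interval −0.50 to −0.10, limma adjusted p = 0.215). That difference did not pass, except with the technical arrays read as separate samples (adjusted p = 0.0277) or as a random block (adjusted p = 0.0359).

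Ctla4, which encodes the inhibitory receptor for the CD28 ligands, lies between Cd28 and Icos in chromosome order and had a difference of the opposite sign. Its log2 intensity was 10.88, 11.12 and 11.08 in Tc1 and 11.46, 11.61 and 11.50 in Tc17. The difference came to 0.52 ± 0.11 (log2, SE, limma adjusted p = 0.153), so none of these 3 adjacent receptor genes passed in the main analysis. Ctla4 passed with the technical arrays as separate samples (adjusted p = 0.0212) or as a random block (0.0252), and with the replicate number as a block (0.0479). The difference of Ctla4 minus that of Cd28 was 0.82 over the samples and that of Icos minus Cd28 was −0.45. With 2 samples per group the exact permutation test gives a two-sided p of 0.333 for each, the smallest it allows.

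Cd86 (probe set 17330203), the gene of the ligand B7-2, was the called gene. Its log2 intensity was 5.95, 6.40 and 6.25 in Tc1 and 9.07, 9.07 and 9.17 in Tc17. The Tc17 arrays lay within 0.10 of each other, and the lowest of them was 2.67 above the highest Tc1 array. The Tc1 mean was 6.14 ± 0.27 and the Tc17 mean 9.10 ± 0.03 (SD, n = 2 samples). Cd86 thus rose by 2.96 ± 0.14 on the log2 scale (SE, 95% interval 2.58 to 3.33, limma adjusted p = 0.00771). By size this difference ranked 34th among the increases of all 41345 probe sets. The Tc1 values were close to the array medians, where signal above background was not shown, so the fold holds for intensities and not for transcripts. The call ended without Tc17 sample 1 (log2 difference 2.98, adjusted p = 0.0594) or Tc17 sample 2 (2.93, adjusted p = 0.0507), and it held without either Tc1 sample.

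Cd80 (probe set 17325608), the gene of the partner ligand B7-1, was higher on all Tc17 arrays by a much smaller amount and did not pass. It measured 10.58, 10.42 and 10.46 in Tc1 and 11.03, 10.81 and 10.84 in Tc17 (log2). The log2 difference was 0.41 ± 0.11 (SE, 95% interval 0.13 to 0.70, limma adjusted p = 0.229), and it passed when the technical arrays were read as separate samples (adjusted p = 0.0405) or as a random block (0.0478). The difference of Cd86 exceeded that of Cd80 by 2.54 on the log2 scale, and by 2.16 to 2.93 for single samples set against each other. The exact permutation test for this excess again reached its smallest two-sided p, 0.333 (0.333 after Benjamini-Hochberg adjustment over the 4 pairs of genes compared in this way).

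The next 2 protein-coding genes on one side of Cd86, Ildr1 and Slc15a2, rose in Tc17, and the 2 on the other side, Casr and Stfa3, did not pass. The 2 nearest protein-coding genes on each side of each of the 7 genes made 21 further genes, of which 20 had a probe set, and the 2 that passed were both neighbours of Cd86. Ildr1, which encodes an immunoglobulin-like receptor of tricellular junctions, is the next gene. It measured 6.23, 6.55 and 6.50 in Tc1 and 9.56, 8.84 and 8.91 in Tc17, and so rose by 2.84 ± 0.26 (log2, SE, limma adjusted p = 0.0278). Slc15a2, a peptide transporter gene, follows it and rose from a mean of 5.76 to 6.46, by 0.71 ± 0.07 (log2, SE, limma adjusted p = 0.0352). Its Tc1 mean lay below every array median, and the Tc1 mean of Ildr1 (6.38) just above. Ildr1 lost its call without Tc1 sample 1, Tc1 sample 2 or Tc17 sample 1 (adjusted p 0.0623 to 0.138), and Slc15a2 lost it without any 1 of the 4 samples (adjusted p 0.158 to 0.219) and with the technical arrays left out (0.0674).

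After these values had been seen, the view was widened to 6 protein-coding genes on each side of Cd86, of which 1 had no probe set. Casr, the calcium-sensing receptor gene on the other side of Cd86, measured 6.25, 6.61 and 6.26 in Tc1 and 7.84, 7.49 and 7.15 in Tc17. All of its Tc17 arrays were higher, with a log2 difference of 1.23 ± 0.20 (SE) that did not pass (limma adjusted p = 0.0951) but did in 4 of 14 alternatives (adjusted p 0.0197 to 0.0372). Eaf2, a transcription elongation cofactor gene beyond Slc15a2, differed by 0.52 ± 0.09 (log2, SE, limma adjusted p = 0.118), with the Tc17 arrays likewise above, and passed in 3 of 14 alternatives (0.0166 to 0.0462). Farther out the groups overlapped for Stfa3, Stfa2, Cstdc5 and Cstdc6 on the Casr side (log2 differences −0.22 to −0.01) and for Iqcb1 and Golgb1 on the other (0.06 and 0.27). Hcls1, at the sixth step, had a log2 difference of 0.20. Along 18987 protein-coding genes with a probe set, 216 were called higher in Tc17, and runs of genes called lower were not searched. Runs of 3 or more genes called higher in a row occurred at 2 places. These were Cd86 with Ildr1 and Slc15a2, and Cpox with Gpr15 and Cldnd1.

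**Figure D2:**
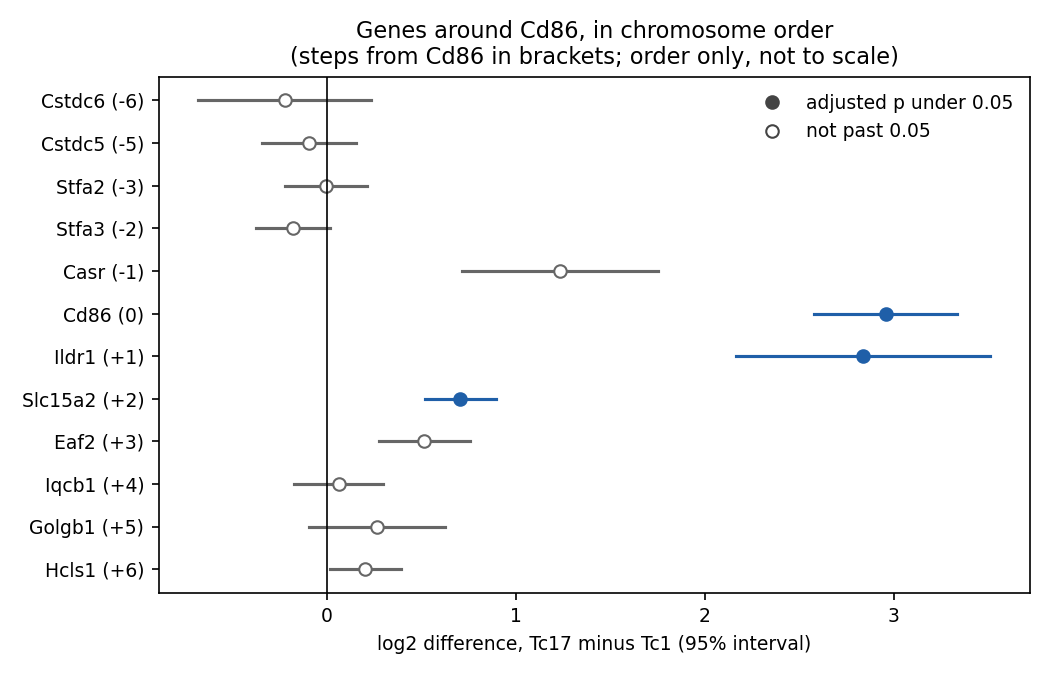
Log2 difference (x axis, Tc17 minus Tc1) with its 95% interval for Cd86 and the measured protein-coding genes up to 6 steps away, listed in chromosome order without distances (y axis). Differences are largest at Cd86 (2.96) and Ildr1 (2.84), smaller at Casr (1.23), Slc15a2 (0.71) and Eaf2 (0.52), and between −0.22 and 0.27 at the remaining genes; filled points passed an adjusted p of 0.05.

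Because CD86 is abundant on antigen-presenting cells, markers of such cells were read in the same arrays. Of 7 macrophage and monocyte markers 1 passed: Lyz2, the lysozyme gene, measured 5.44, 5.21 and 5.68 in Tc1 and 9.18, 8.74 and 8.79 in Tc17 (log2 difference 3.53 ± 0.15 SE, limma adjusted p = 0.00594). Its call was lost without Tc1 sample 2 (adjusted p = 0.055). The other 6 did not pass, with log2 differences of 0.38 for Adgre1, 0.28 for Csf1r, 0.25 for Cd14, 0.09 for Itgam, 0.03 for Fcgr1 and −0.14 for Cd68. The summed linear intensity of the 7 markers ran from 1125 to 1590 in Tc1 and from 1613 to 1837 in Tc17, with Cd68 the brightest and Adgre1 the dimmest, and Lyz2 was the marker with the large increase. None of 5 dendritic cell markers passed, and their sum ran from 247 to 271 in Tc1 and from 252 to 303 in Tc17, from Xcr1 as the dimmest to Itgax as the brightest. None of 5 B cell markers passed, from Ms4a1 (4.26 in Tc1 and 4.21 in Tc17) to Cd79b, whose log2 difference was 0.52. The B cell sum ran from 1052 to 1177 in Tc1 and from 1430 to 1563 in Tc17, a gap that Cd79b carried, since the other 4 markers had log2 differences between −0.06 and 0.02. None of 4 MHC class II genes passed, with H2-Aa the dimmest and H2-Ab1 the brightest, and their sum ran from 4478 to 5569 in Tc1 and from 4863 to 5450 in Tc17. None of 3 natural killer cell markers passed either, from Klrb1c as the dimmest to Eomes, a factor that CD8 T cells also express, as the brightest (log2 difference −1.18, limma adjusted p = 0.0583). Their sum ran from 225 to 285 in Tc1 and from 124 to 145 in Tc17, a gap that Eomes carried. Ncr1 and Klrb1c had log2 differences of 0.01 and 0.04. The part of other cells in the Cd86 result was not tested beyond these values, and in bulk RNA more cells of a type cannot be told apart from more RNA per cell.

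**Figure D3:**
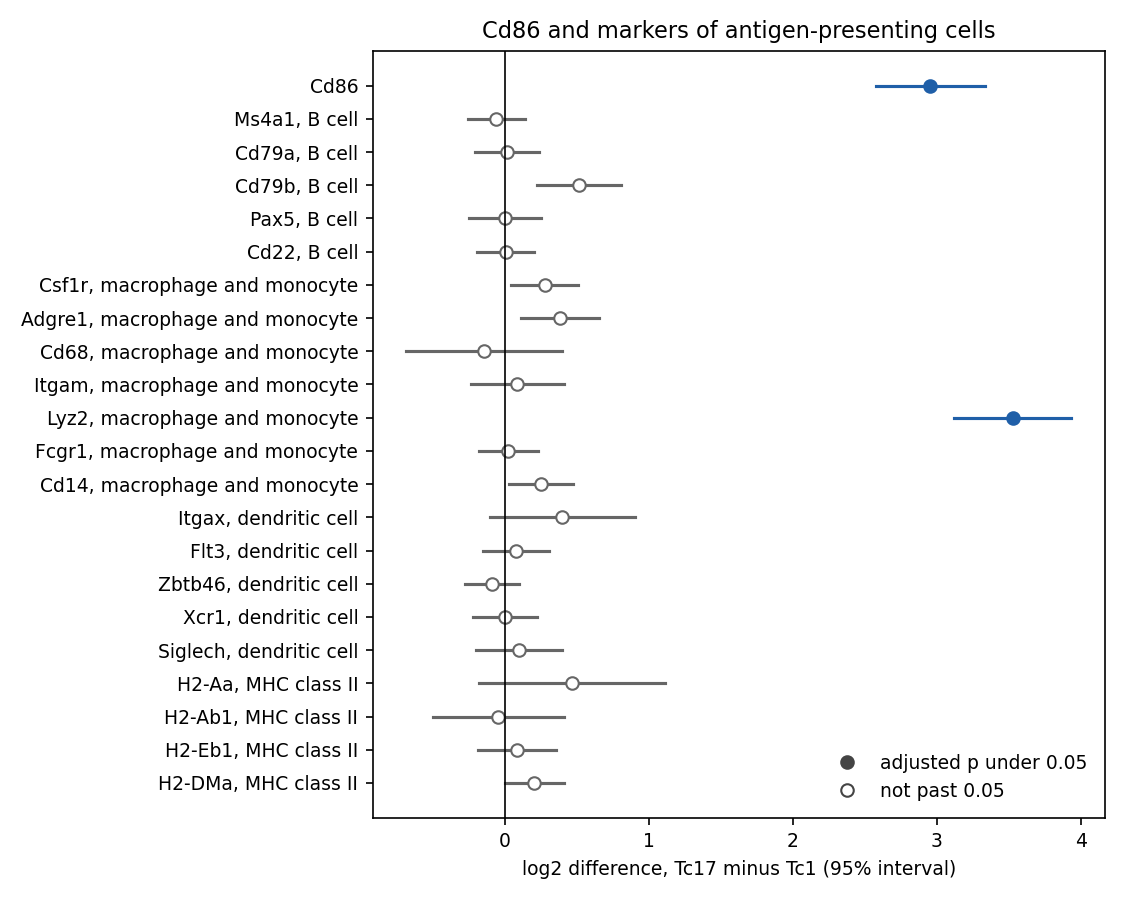
Log2 difference (x axis, Tc17 minus Tc1) with its 95% interval for Cd86 and for 21 measured markers of B cells, macrophages and monocytes, dendritic cells and MHC class II presentation (y axis). Cd86 (2.96) and Lyz2 (3.53) stand at the right, and the other 20 markers lie between −0.14 and 0.52.

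The ligands of ICOS and PD-1 showed small differences that did not pass. Icosl (probe set 17234786), the gene of ICOS ligand, measured 6.88, 6.86 and 6.91 in Tc1 and 6.92, 6.95 and 6.96 in Tc17 (log2). Its groups were separated by 0.0068, and the log2 difference was 0.05 ± 0.07 (SE, 95% interval −0.14 to 0.24, limma adjusted p = 0.828). Cd274 (probe set 17358544), the PD-L1 gene, measured 9.11, 9.16 and 9.23 in Tc1 and 8.99, 8.82 and 8.88 in Tc17. Its Tc17 arrays were the lower ones, with a log2 difference of −0.24 ± 0.09 (SE, 95% interval −0.47 to −0.0019, limma adjusted p = 0.373). Pdcd1lg2 (probe set 17358552), the PD-L2 gene and the next gene after Cd274, measured 6.27, 6.35 and 6.38 in Tc1 and 6.25, 6.25 and 6.46 in Tc17. The groups overlapped, with a log2 difference of −0.02 ± 0.08 (SE, 95% interval −0.24 to 0.20, limma adjusted p = 0.952) that was 0.03 without Tc1 sample 2 or Tc17 sample 1. The intervals leave out a 1.5-fold difference for each of these 3 ligand genes. The difference of Cd274 minus that of Pdcd1lg2 was −0.22 (exact permutation two-sided p = 0.333, the smallest possible).

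Promoter windows were read for the ligand genes because CD274 and PDCD1LG2 are known to respond to interferon through IRF factors. RefSeq windows of build GRCm38.p6 were matched for 4 of the 7 genes, Cd80, Icosl, Cd274 and Pdcd1lg2, and none for Cd28, Icos or Cd86. The 250 bases before the start are shown for the 3 that held a match, all on the plus strand. The motifs searched on both strands were the IRF core AANNGAAA, the STAT-type site TTCNNNGAA and the AP-1 site TGANTCA, found in 21.3%, 7.02% and 6.75% of 32851 such windows. Capitals mark the matches: an IRF core on the minus strand of Cd274 (chr19:29367188-29367437, positions −175 to −168) and of Pdcd1lg2 (chr19:29410669-29410918, −35 to −28), and an AP-1 site in Cd80 (chr16:38458683-38458932, −42 to −36).
Cd274: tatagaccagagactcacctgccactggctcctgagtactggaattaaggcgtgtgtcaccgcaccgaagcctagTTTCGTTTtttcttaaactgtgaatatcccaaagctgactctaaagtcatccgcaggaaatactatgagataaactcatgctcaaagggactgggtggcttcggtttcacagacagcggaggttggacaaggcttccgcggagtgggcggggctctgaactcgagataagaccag
Pdcd1lg2: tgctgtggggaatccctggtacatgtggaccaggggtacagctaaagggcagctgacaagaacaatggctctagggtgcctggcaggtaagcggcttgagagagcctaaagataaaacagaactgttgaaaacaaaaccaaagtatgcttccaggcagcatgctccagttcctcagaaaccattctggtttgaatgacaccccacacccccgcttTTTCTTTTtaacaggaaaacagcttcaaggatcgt
Cd80: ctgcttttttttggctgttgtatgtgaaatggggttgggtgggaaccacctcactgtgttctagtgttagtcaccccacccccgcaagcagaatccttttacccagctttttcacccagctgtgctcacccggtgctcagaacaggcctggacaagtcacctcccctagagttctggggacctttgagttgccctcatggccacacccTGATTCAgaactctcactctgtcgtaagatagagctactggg
These matches describe the letters only, and no binding was measured. Whether IRF factors acted on these genes in the 2 cultures was not tested.

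Other receptors and ligands of the CD28 and B7 families gave no call. Of 6 such genes, all measured, 0 passed in limma's test and 2 (Ctla4 and Btla) had an unadjusted p under 0.05, and their median log2 difference was 0.16. That median ran from 0.04 to 0.29 with each sample left out in turn. Pdcd1, the PD-1 gene, measured 9.72, 9.07 and 8.94 in Tc1 and 9.77, 9.39 and 9.43 in Tc17. Its groups overlapped, since sample 1 was the higher in both, and the log2 difference was 0.22 ± 0.27 (SE, 95% interval −0.50 to 0.94). Without Tc1 sample 2 it was −0.13. Btla, an inhibitory receptor gene, differed by 0.40 ± 0.13 (log2, SE, limma adjusted p = 0.325), with every Tc17 array above every Tc1 array. Vsir, the VISTA gene, had a log2 difference of −0.23, and the B7 relatives Vtcn1 and Cd276 had 0.10 and −0.0095.

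**Figure D4:**
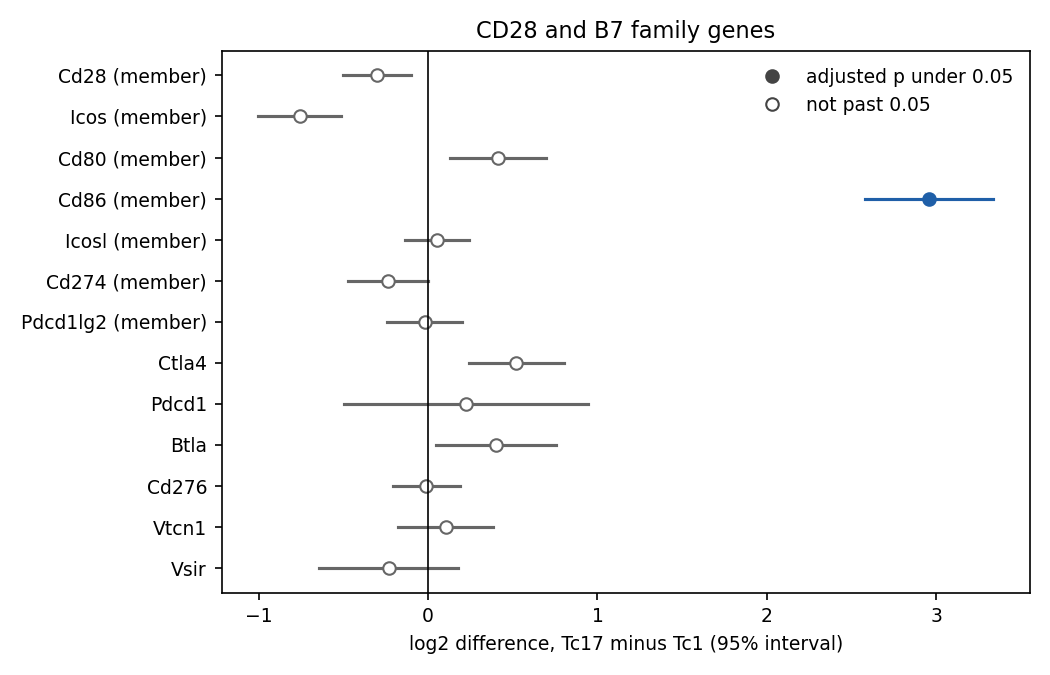
Log2 difference (x axis, Tc17 minus Tc1) with its 95% interval for the 7 genes described here and 6 other genes of the CD28 and B7 families (y axis). Cd86 (2.96) is the only filled point, which marks an adjusted p under 0.05, and the other 12 differences lie between −0.76 and 0.52.

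Genes that carry the signal of CD28 and ICOS gave 1 call, for Malt1. Of 24 listed genes 20 had a probe set of a single symbol; 1 rose, none fell, and the median log2 difference was −0.0067 (−0.05 to −0.0012 with each sample left out in turn). The called gene was Malt1, the paracaspase that links the receptors to NF-kappaB. It measured 11.96, 11.95 and 12.03 in Tc1 and 12.62, 12.59 and 12.60 in Tc17, higher by 0.63 ± 0.07 (log2, SE, limma adjusted p = 0.0479). That call sat close to the threshold and ended in 7 of 14 alternatives, with an adjusted p of up to 0.261. Among the uncalled genes the largest differences were those of Pik3cd (the leukocyte phosphoinositide 3-kinase subunit, −0.39), Bcl2l1 (the survival gene of Bcl-xL, −0.37) and Il2 (0.36). Il2, the cytokine gene classically induced through CD28, measured 3.93 to 4.49 on all 6 arrays, below every array median.

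Regulators of these genes or of their proteins included 1 call in 13 measured of 14 listed. Irf1 fell from 9.60 in Tc1 to 8.43 in Tc17, a change of −1.17 ± 0.11 (log2, SE, limma adjusted p = 0.0296). Its arrays were 9.52, 9.66 and 9.70 in Tc1 and 8.33, 8.46 and 8.58 in Tc17. The call was lost without any 1 of the 4 samples (adjusted p 0.0942 to 0.148). None rose, and the median log2 difference of the 13 was 0.06. The largest uncalled differences were those of Zc3h12a (0.63), which encodes an RNase that degrades Icos mRNA, Stat3 (0.50), the transcription factor gene downstream of IL-6, and Adam17 (−0.38), the gene of a surface protein sheddase. For Marchf1, the gene of the ubiquitin ligase that removes CD86 from the cell surface, the Tc1 mean was 5.48 and the Tc17 mean 5.59, both below every array median. Rc3h1, a repressor of Icos mRNA, and Cmtm6, a stabiliser of PD-L1, had log2 differences of 0.02 and 0.06.

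The genes most like each of the 6 separated genes over the 6 arrays were found by Pearson's r, which here mostly reflects the split between the cultures. Genes with provisional symbols, such as Gm or Rik names, were left out. For Cd86 they were Rgs10 (a regulator of G protein signalling, r = 0.9997), Aff3 (0.999) and Cysltr1 (a leukotriene receptor gene, 0.9988), which also rose, by 1.92, 3.49 and 2.80 on the log2 scale. Of the genes kept, 770 reached an r over 0.95 with Cd86. For Icos they were Emilin2, Lat2 and Scly (r = 0.9991 to 0.998), which fell by 2.11, 1.25 and 1.03. For Cd28 they were Tnks1bp1, Tafa3 and Tmem171, for Cd80 Cbln3, Rasgef1b and Kri1, for Cd274 Htatsf1, Traf5 and Pkn2, and for Icosl Syt14, Tmem9b and Tmem164. None of these 12 passed, and their r ran from 0.9921 to 0.9994.

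The direction of 6 of the 7 differences held under every alternative run, and that of Pdcd1lg2 did not. Over 14 alternatives the log2 difference of Cd86 ran from 2.77 to 3.14, that of Cd80 from 0.31 to 0.51, that of Cd28 from −0.35 to −0.26 and that of Cd274 from −0.31 to −0.16. The adjusted p moved more: with each technical array as a further sample it fell for each of these 4 genes. With 1 sample left out it rose for each of the 4.

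**Figure D5:**
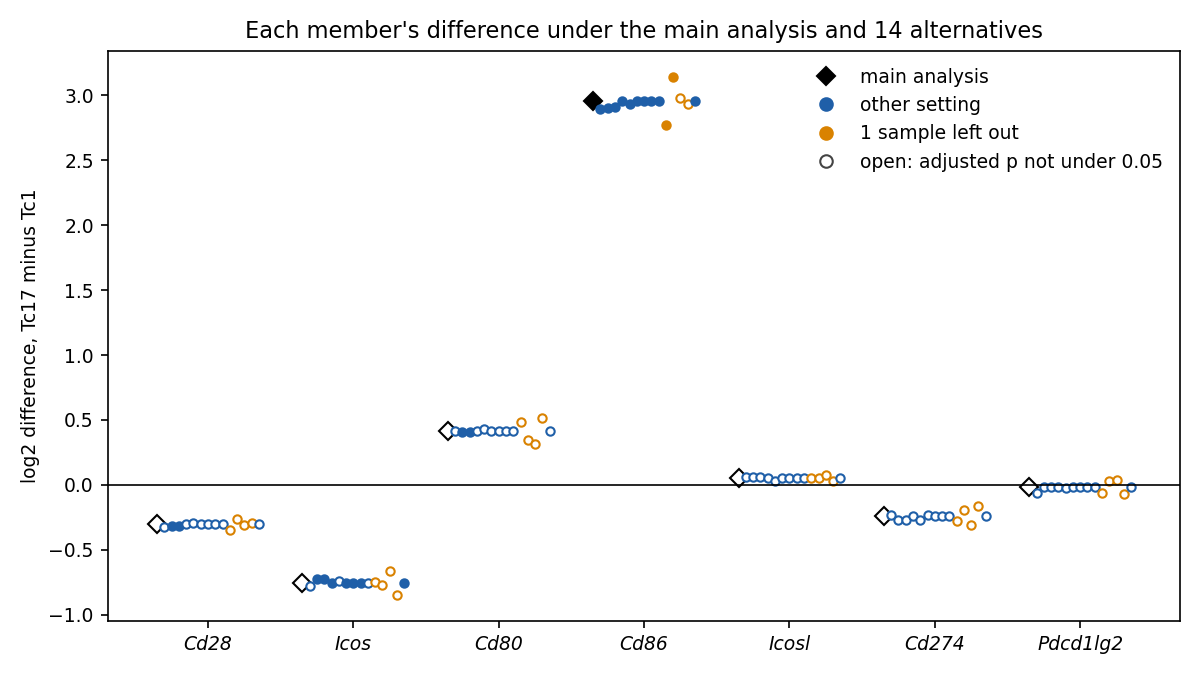
Log2 difference (y axis, Tc17 minus Tc1) of each of the 7 genes (x axis) in the main analysis (diamond) and under 14 alternatives, with orange points where 1 biological sample was left out. Filled points passed an adjusted p of 0.05: Cd86 is filled in 12 of 14 alternatives, Icos in 7, Cd28 and Cd80 in 2 each, and Icosl, Cd274 and Pdcd1lg2 in none.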

How the data were processed

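Biotin-labelled total RNA was hybridised to 6 single-colour Affymetrix arrays. The values deposited by the authors are log2 intensities made by RMA, with Partek also named, per the submitters' processing notes (no versions given). The genome build of the array annotation and the arrays normalized together are not given in the sources used here. Gene symbols came from the platform annotation (1 symbol for 23521 probe sets, several for 1814), and a gene was its brightest probe set over the 6 arrays.

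The technical array was averaged with sample 2 of its group, which left 2 samples per group. limma 3.58.1 (R 4.3.3; lmFit, eBayes) was fitted across all 41345 probe sets without a filter, with 2 residual and 2.63 prior degrees of freedom, Benjamini-Hochberg adjustment and a threshold of 0.05. The fit was tested on simulated data.

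The genes, gene lists and markers were chosen with earlier results of these data known. The text names all 7 genes, the 6 other family genes and called neighbours. It names up to 3 called and 3 uncalled genes of the other lists by size, and the 3 most similar genes each. For the marker lists it names the brightest and dimmest marker, and outside this rule Cd2, Cd4 and Ncr1. The other macrophage and monocyte markers, Marchf1, Rc3h1, Cmtm6 and the wider neighbourhood of Cd86 were added after their values were seen. March1 and March8 were read under their current symbols through RefSeq (GRCm38.p6), whose table also gave gene order. The alternatives covered how the technical array enters, the replicate number as a block, quantile and median scaling, a filter on dim probe sets, eBayes with trend or robust, each sample left out and gene means. Figures were drawn with matplotlib 3.10.9.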

Additional observations from a re-analysis of the deposited data

How the results depend on the processing

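Directions of Cd28, Icos, Cd80, Cd86, Icosl and Cd274 held in all 14 alternatives. Pdcd1lg2 ran from −0.07359 to 0.0338 with samples left out, above 0 without Tc1 sample 2 (0.026685) or Tc17 sample 1 (0.0338). Pdcd1 turned to −0.13 without Tc1 sample 2 (range −0.13 to 0.58). Cd86 lost its call without Tc17 sample 1 (2.98) or Tc17 sample 2 (2.93), and its log2 difference ran from 2.77 to 3.14 over the alternatives. A lone remaining sample is assumed to vary like the other group.

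The arrays taken as separate samples called 2 genes higher and 2 lower of the 7, with Cd28 at −0.32, Icos at −0.72 and Cd80 at 0.40, and 1364 probe sets higher and 954 lower in all. The technical array as a random block gave 2 and 2 (−0.32, −0.73, 0.40), and 1233 and 841. Both gave 1 higher among other family genes, 2 higher and 1 lower for signalling, and 1 and 2 for regulators. Icos also passed, as 1 gene lower, with the replicate block, the filter, eBayes with trend and gene means (−0.76 each) and with median centring (−0.76).

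With the replicate block 932 probe sets were higher and 603 lower, with 1 other family gene and 1 regulator higher. The labels do not say what the number marks. Same-numbered samples had deviations correlated at 0.313 across probe sets. With 2 samples per group that value has no spread to be read against, and a shared effect was not tested. The pairing is therefore given only as an alternative. Calls gained with it include Icos, Ctla4 and Casr. The filter called 391 higher and 252 lower. eBayes with trend and gene means each called 1 regulator higher. Malt1, the 1 signalling gene, was lost (0) without the technical arrays, with median centring and with eBayes robust. With samples left out, 29 to 84 probe sets were higher and 19 to 52 lower, and the signalling and regulator calls fell to 0. Apart from fewer samples or genes tested, the cause was not tested. Dim values, such as Cd86 in Tc1, limit what a fold means.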
